A study of Mus musculus with 9 samples.

Results

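Glutamate receptors and the auxiliary subunits of AMPA receptors were examined in mouse hippocampus. The set of 33 genes was selected by gene symbol from the 22173 genes of the expression table, and all 33 were found there. It holds 4 AMPA receptor subunits, 7 NMDA receptor subunits, 5 kainate receptor subunits, 1 delta receptor, 6 metabotropic receptors and 10 auxiliary proteins. RNA-seq of the hippocampus compared 3 groups of female C57BL/6 mice with 3 libraries each. The quercetin group (Que) was 10 months old and had received quercetin, a plant flavonol given into the tail vein, for 24 days according to the sample labels. The paper gives a longer course for its behaviour tests. The middle-aged controls were 10 months old and the young controls 8 weeks old, and both had received PBS with 10% DMSO. According to the paper's methods the quercetin was dissolved in the same solvent. No group carried a genetic change, and nothing in the labels says that each library came from 1 mouse, so the p-values measure the spread between these libraries.

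Glutamate is the main excitatory transmitter of the brain. AMPA receptors are fast cation channels that carry most of the excitatory current at hippocampal synapses, NMDA receptors are calcium-permeable channels needed for many forms of synaptic plasticity, and kainate receptors modulate transmission, with a well-known role at mossy fibre synapses on CA3 neurons. Metabotropic receptors signal through G proteins. AMPA receptors are assembled with auxiliary proteins, the TARPs (Cacng genes), the cornichons (Cnih genes) and the Shisa proteins, which set their trafficking and gating.

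Expression was given as FPKM, the number of fragments relative to gene length and to all mapped fragments of a library. Comparisons of levels between genes are approximate, since the tool and its treatment of reads shared by paralogs are not stated. Each value is also relative to the other RNA of its library. Differences between groups were tested with limma on log2(FPKM + 1) over the 13062 genes that reached 1 FPKM in 3 or more libraries, and a gene was called at a Benjamini-Hochberg adjusted p under 0.05. Of the 33 genes, 32 passed the filter with at least 1 FPKM in all 9 libraries. Grin3b, an NMDA receptor subunit, lay between 0.16 and 0.32 FPKM in every library and was not tested.

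No gene of the set was called in any of the 3 comparisons, and most intervals were narrow. The 95% interval of the log2 difference stayed within 0.5 of 0 for 31 of 32 genes between middle-aged controls and young controls, for 31 between Que and middle-aged controls and for 32 between Que and young controls. The exception in the first 2 of these was Grm4, a presynaptic receptor at 2.36 to 4.71 FPKM. The median half-width of the intervals was 0.13 on the log2 scale. The coefficient of variation over the 9 libraries was under 10% for 29 of the 33 genes, with a median of 5.87%, against a median of 6.52% over all tested genes.

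Several libraries stood apart in markers of neighbouring tissue or of hippocampal fields. The summed level of 12 choroid plexus markers was 1135 FPKM in Que 2 and 2855 FPKM in young control 3, while the other 7 libraries held 51.6 to 88.7 FPKM, and 2 of 8 thalamic markers were high in the same pair. Zic1 had 9.67 FPKM in Que 2 and 8.35 FPKM in young control 3, against 1.22 to 3.45 FPKM elsewhere, and Prkcd 13.4 and 14.02 FPKM, against 6.42 to 8.47 FPKM. The other 6 thalamic markers lay within the range of those 7 libraries in Que 2, as did 5 of them in young control 3. In middle-aged control 2 the sum of 7 CA3 and CA2 markers was 121.0 FPKM, and 95.4 to 99.9 FPKM elsewhere. Bok (47.4 FPKM) and Rgs14 (41.4 FPKM) made up most of this sum. Both were highest in this library, as were Iyd, Socs2 and Amigo2. Trps1 lay within the range of the other libraries there, and Map3k15 had its lowest value (0.46 FPKM). All 7 dentate granule neuron markers and all 6 CA1 markers had at least 1 FPKM in every library. So did all 6 cortex markers, 6 of 8 thalamic markers and 5 of 8 striatal markers. This threshold therefore does not separate hippocampus from neighbouring regions. Of 5 cerebellar granule neuron markers, Gabra6, Fat2 and Cbln3 were at most 0.25 FPKM in every library, while Pax6 lay between 1.88 and 2.63 FPKM and Zic2 between 2.97 and 8.43 FPKM, highest in Que 2 and young control 3. The read depth is unknown, since FPKM holds no counts, and scaling factors between libraries lay between 0.994 and 1.01.

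**Figure D1:**
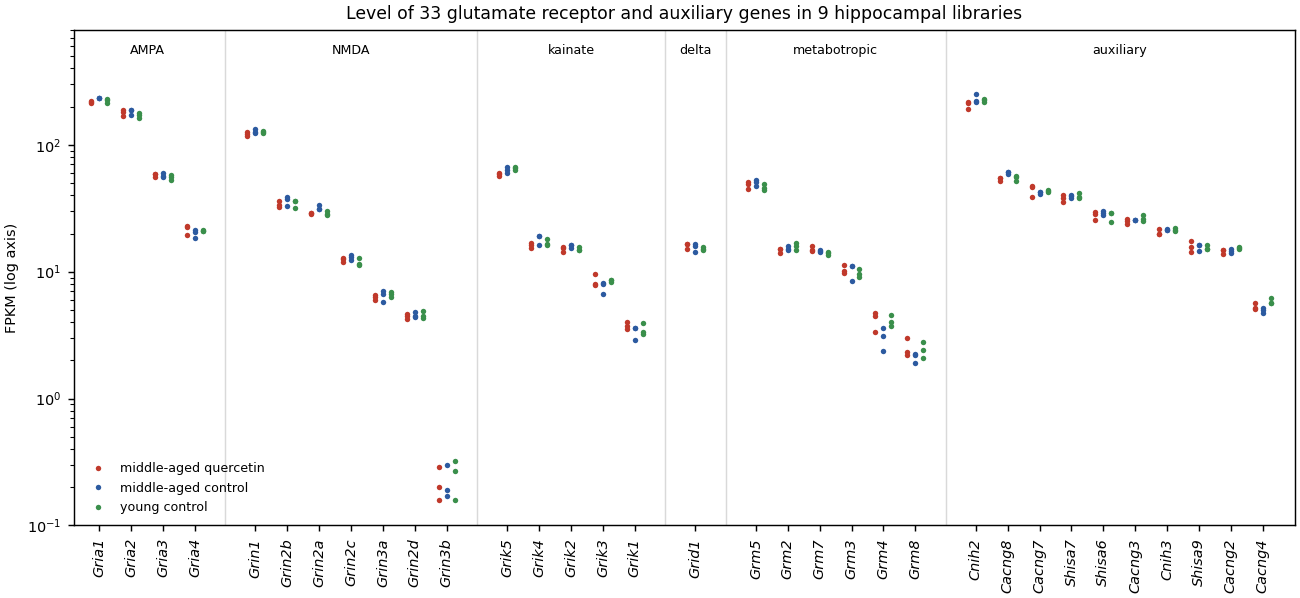
FPKM of the 33 genes on a log axis, grouped by class and ordered by mean level within each class, with 1 point per library (red, middle-aged quercetin; blue, middle-aged control; green, young control). Gria1, Cnih2, Gria2 and Grin1 stand above 100 FPKM in every library, Grin3b lies between 0.16 and 0.32 FPKM, and the 3 colours sit close together for nearly every gene.

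The 4 AMPA receptor subunits summed to 459 to 486 FPKM in Que, 480 to 502 FPKM in middle-aged controls and 452 to 483 FPKM in young controls. Gria1 encodes GluA1, a subunit whose phosphorylation and delivery to synapses accompany long-term potentiation. It had the highest mean of the set over the 9 libraries (224 FPKM), close to that of the auxiliary gene Cnih2 (221 FPKM). Cnih2 was higher than Gria1 in some libraries, such as middle-aged control 2 (253 against 233 FPKM). The FPKM of Gria1 was 220.2, 216 and 214 in Que, 233, 233 and 236 in middle-aged controls and 225, 212 and 229.7 in young controls. All 3 middle-aged controls were above all 6 other libraries, and Que and young controls overlapped.

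Gria2, which encodes the subunit that makes AMPA receptors impermeable to calcium, had 182, 189 and 169 FPKM in Que, 187, 172 and 189.6 FPKM in middle-aged controls and 179, 164 and 171 FPKM in young controls, with overlap between all groups. Gria3 lay between 52.9 and 59.6 FPKM over the 9 libraries. Gria4, a subunit prominent in interneurons, lay between 18.5 and 23.0 FPKM. The order Gria1, Gria2, Gria3, Gria4 was the same in all 9 libraries, and no neighbours in it overlapped.

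Calcium permeability of AMPA receptors turns on 1 codon in the pore, the Q/R site. The genome encodes glutamine there, and in brain nearly all Gria2 transcripts, and many Grik1 and Grik2 transcripts, are edited to encode arginine by the adenosine deaminase ADAR2. The coding-strand reference sequence around this codon, 5′ to 3′, is shown for the 4 AMPA subunits and the 2 edited kainate subunits because the edited and unedited forms count as the same gene in these values. The glutamine codon is in capitals.
Gria2: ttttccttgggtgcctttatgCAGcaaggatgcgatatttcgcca
Gria1: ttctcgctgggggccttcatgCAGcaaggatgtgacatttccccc
Gria3: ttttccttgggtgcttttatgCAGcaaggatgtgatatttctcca
Gria4: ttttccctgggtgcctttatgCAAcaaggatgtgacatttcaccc
Grik1: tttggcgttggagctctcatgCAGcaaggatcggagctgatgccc
Grik2: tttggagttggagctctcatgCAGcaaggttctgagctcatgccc

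The Gria2 codon lies in exon 11 of 16 on the minus strand, at chr3:80706911-80706913 of GRCm38, and encodes residue 607 of the precursor. The Gria1 codon lies on the plus strand at chr11:57243094-57243096, also in exon 11 of 16. Over the 45 bases, Gria2 matched Gria3 at 42 positions, Gria4 at 39 and Gria1 at 36, against 29 for Grik1 and 27 for Grik2. The glutamine codon was CAA in Gria4 and CAG in the other 8 AMPA and kainate subunits.

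Since the values are per gene, they give the amount of Gria2 RNA and not its edited share. Gria2 made up 37.8 ± 0.993% of the AMPA subunit FPKM in Que, 37.0 ± 1.08% in middle-aged controls and 36.4 ± 0.622% in young controls (SD, n = 3 each). The groups overlapped, and the smallest p of the 3 comparisons was 0.20 (exact permutation test, two-sided). Adarb1, the gene of ADAR2, is given here for its role and not for a change. It had 32.1, 30.8 and 33.3 FPKM in Que, 30.1, 30.7 and 31.3 FPKM in middle-aged controls and 32.8, 31.7 and 33.02 FPKM in young controls, and was not called in any comparison (limma, smallest adjusted p = 0.454).

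The NMDA receptor subunits summed to 202 to 212 FPKM in Que, 212 to 231 FPKM in middle-aged controls and 210.3 to 218 FPKM in young controls. Grin1, which encodes the obligatory glycine-binding subunit GluN1, accounted for 57.4 to 60.2% of this sum. Its FPKM was 121, 117 and 126 in Que, 134, 125 and 125 in middle-aged controls and 129, 127 and 123 in young controls.

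Grin2a and Grin2b encode GluN2A and GluN2B, the glutamate-binding subunits whose balance shifts towards GluN2A during postnatal development of the forebrain. Grin2a had 29.2, 28.7 and 29.1 FPKM in Que, 33.7, 31.0 and 31.0 FPKM in middle-aged controls and 30.0, 28.6 and 28.0 FPKM in young controls. All 3 middle-aged controls were above all 6 other libraries. Grin2b had 35.9, 32.2 and 33.4 FPKM in Que, 38.6, 33.2 and 37.4 FPKM in middle-aged controls and 36.3, 31.9 and 35.8 FPKM in young controls, with the groups overlapping.

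Grin2b exceeded Grin2a in each of the 9 libraries although their ranges overlapped. The ratio of Grin2a to Grin2b was 0.859 in Que, 0.878 in middle-aged controls and 0.834 in young controls, and no comparison of it gave p under 0.40 (exact permutation test, two-sided). Below these came Grin2c, the GluN2C subunit that is also found in astrocytes, at 11.3 to 13.5 FPKM, Grin3a at 5.73 to 7.01 FPKM and Grin2d, an interneuron-enriched subunit, at 4.24 to 4.94 FPKM.

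Among kainate receptors, Grik5, which encodes the high-affinity subunit GluK5, held 56.1 to 60.9% of the class sum. It had 60.5, 56.9 and 59.0 FPKM in Que, 63.2, 67.4 and 60.3 FPKM in middle-aged controls and 67.1, 65.5 and 62.8 FPKM in young controls. The Que libraries were all below the young controls, and 1 middle-aged control lay within their range. Grik4, which encodes GluK4, a high-affinity subunit concentrated in CA3, had 16.3, 15.4 and 16.8 FPKM in Que, 16.4, 19.3 and 19.1 FPKM in middle-aged controls and 16.3, 18.2 and 16.4 FPKM in young controls.

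The low-affinity subunits, which can form channels by themselves, were lower. Grik2 lay between 14.2 and 16.1 FPKM, overlapping with Grik4, Grik3 between 6.64 and 9.57 FPKM and Grik1, known from interneurons, between 2.87 and 4.01 FPKM. Summed over the 5 kainate genes the level was 104, 101 and 102 FPKM in Que, 107, 112 and 107 FPKM in middle-aged controls and 110.2, 111 and 107 FPKM in young controls. Each Que library lay below all 6 control libraries, also after median-of-ratios or upper-quartile scaling. Most of the gap was that of Grik5, which averaged 58.8 FPKM in Que, 63.6 FPKM in middle-aged controls and 65.1 FPKM in young controls, whereas Grik1 and Grik3 were higher in Que than in middle-aged controls by 0.14 each on the log2 scale, neither of them called. This sum was singled out after its values were seen and was not tested. Grid1, a delta receptor that does not carry a glutamate current by itself and organises synapses, lay between 14.2 and 16.5 FPKM, with all groups overlapping.

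Of the metabotropic receptors, Grm5, which encodes the group I receptor mGluR5 that drives phosphoinositide signalling, held 48.4 to 53.2% of the class. It had 49.5, 50.6 and 45.0 FPKM in Que, 53.0, 47.3 and 51.3 FPKM in middle-aged controls and 44.3, 45.6 and 48.7 FPKM in young controls, with overlap between all groups. The group II receptors, which lower cyclic AMP, were Grm2 at 14.1 to 16.9 FPKM and Grm3, also expressed by astrocytes, at 8.41 to 11.3 FPKM.

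The group III receptors sit mainly at presynaptic terminals and limit release. Grm7 had 15.8, 14.6 and 14.9 FPKM in Que, 14.7, 14.2 and 14.5 FPKM in middle-aged controls and 13.6, 14.3 and 14.1 FPKM in young controls, so that all Que libraries were above all young controls. Grm4 had 3.34, 4.71 and 4.47 FPKM in Que, 3.61, 2.36 and 3.11 FPKM in middle-aged controls and 4.54, 3.73 and 4.04 FPKM in young controls. The middle-aged controls were below the young controls without overlap, while the Que libraries overlapped with both groups. Grm8 lay between 1.92 and 3.00 FPKM.

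The 10 auxiliary genes summed to 426 to 467 FPKM in Que, 469 to 508 FPKM in middle-aged controls and 469 to 486 FPKM in young controls, a level close to that of the AMPA subunits. Cnih2, the cornichon that slows AMPA receptor deactivation in hippocampal pyramidal neurons, held 45.3 to 49.9% of the class. It had 212, 193 and 218 FPKM in Que, 221, 253 and 216 FPKM in middle-aged controls and 218, 226 and 232 FPKM in young controls. Its highest value was in middle-aged control 2 and its lowest in Que 2.

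Cacng8, which encodes TARP gamma-8, the hippocampus-enriched TARP that sustains the extrasynaptic pool of AMPA receptors, had 55.3, 52.2 and 54.6 FPKM in Que, 60.6, 61.4 and 59.0 FPKM in middle-aged controls and 57.2, 52.3 and 55.6 FPKM in young controls. All middle-aged controls were above all other libraries. Cacng2, which encodes stargazin, lay between 13.9 and 15.7 FPKM, Cacng3 between 23.8 and 28.1 FPKM and Cacng7 between 38.8 and 47.0 FPKM.

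Cacng4 was the lowest TARP gene of the set. It had 5.15, 5.66 and 5.08 FPKM in Que, 4.96, 4.72 and 5.18 FPKM in middle-aged controls and 5.62, 5.71 and 6.22 FPKM in young controls, and the middle-aged controls were below the young controls without overlap. Cnih3 lay between 19.7 and 22.3 FPKM. The Shisa genes, whose products modulate AMPA receptor desensitisation and recovery, lay between 35.5 and 42.0 FPKM for Shisa7, 24.4 and 30.1 FPKM for Shisa6 and 14.3 and 17.4 FPKM for Shisa9.

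**Figure D2:**
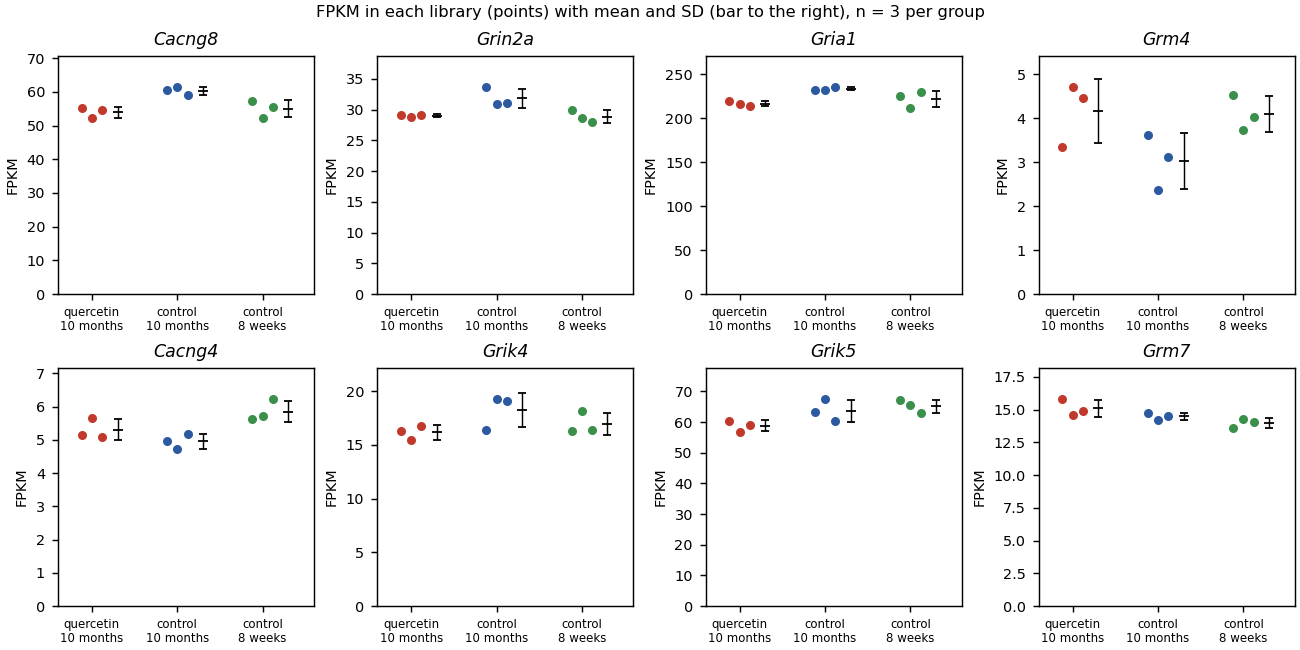
FPKM in each of the 9 libraries for 8 of the 9 genes with an unadjusted p under 0.05 in at least 1 comparison (Cnih2 is not drawn), on axes that start at 0. Points are libraries (red, quercetin; blue, middle-aged control; green, young control) and bars are the mean and SD of 3. For Cacng8 and Grin2a the 3 middle-aged controls lie above the other 6 libraries, with Cacng8 at 59.0 to 61.4 FPKM, whereas for Grik4 the groups overlap.

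Middle-aged controls were compared with young controls to ask what changed with age. Of all tested genes 0.23% were called, and none of the 32. At an unadjusted p under 0.05, Grin2a and Cacng8 were higher, which is 2 of 32 against a background of 5.59%, and Cacng4 and Grm4 were lower, also 2 of 32, against 6.63%. Groups did not overlap for 3 genes on the higher side (Gria1, Grin2a, Cacng8; background 8.81%) and for 4 on the lower side (Grik3, Grm4, Cacng4, Cacng7; background 9.41%). All these shares were near the background.

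Grin2a averaged 31.9 ± 1.55 FPKM in middle-aged controls and 28.8 ± 1.04 FPKM in young controls (SD, n = 3 each), a log2 difference of 0.14 (standard error 0.0434, limma adjusted p = 0.238). Cacng8 averaged 60.4 ± 1.21 FPKM in middle-aged controls and 55.0 ± 2.53 FPKM in young controls (log2 difference 0.13, standard error 0.0418, adjusted p = 0.240 by limma). Cacng4 averaged 4.95 ± 0.230 FPKM in middle-aged controls and 5.85 ± 0.324 FPKM in young controls (log2 difference -0.20, standard error 0.0634, adjusted p = 0.239 by limma). None of these differences passed the adjustment.

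Grm4 had the largest difference of the set, -0.35 on the log2 scale (standard error 0.130, limma adjusted p = 0.310), with 3.03 ± 0.629 FPKM in middle-aged controls and 4.10 ± 0.409 FPKM in young controls. Without middle-aged control 2 its difference was -0.23. Grm5 differed by 0.13 (standard error 0.0574, limma adjusted p = 0.412). Over the 32 genes 17 differences were positive and 15 negative, with a median of 0.02, against -0.0049 over all tested genes.

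Que was compared with middle-aged controls to ask what quercetin changed. Of all tested genes 0.168% were called, and none of the 32. At an unadjusted p under 0.05, 6 of the 32 genes were lower in Que (18.8%, background 4.69%) and 1 was higher, Grm4 (3.12%, background 6.98%). The lower ones were Gria1, Grin2a, Grik4, Grik5, Cacng8 and Cnih2. Groups did not overlap for 3 genes on the lower side, Gria1, Grin2a and Cacng8 (background 7.35%), and for 0 on the higher side (background 8.97%).

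Cacng8 had the smallest p, with 54.0 ± 1.63 FPKM in Que and 60.4 ± 1.21 FPKM in middle-aged controls (log2 difference -0.16, standard error 0.0418, limma adjusted p = 0.196). Grin2a averaged 29.0 ± 0.240 FPKM in Que and 31.9 ± 1.55 FPKM in middle-aged controls (log2 difference -0.13, limma adjusted p = 0.294). Gria1 averaged 217 ± 3.11 FPKM in Que and 234 ± 1.66 FPKM in middle-aged controls (log2 difference -0.11, standard error 0.0383, limma adjusted p = 0.320). In all 3 genes the difference was larger than the spread within either group, and it did not pass the adjustment over all genes.

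Grm4 averaged 4.17 ± 0.732 FPKM in Que and 3.03 ± 0.629 FPKM in middle-aged controls, a log2 difference of 0.36 (standard error 0.130, limma adjusted p = 0.320), which was 0.24 without middle-aged control 2. Grik4 averaged 16.2 ± 0.690 FPKM in Que and 18.3 ± 1.63 FPKM in middle-aged controls (log2 difference -0.16, standard error 0.0668, limma adjusted p = 0.376). All 6 tested NMDA subunits had a negative difference, from -0.13 to -0.03, as did 7 of the 10 auxiliary genes. Over the 32 genes 12 differences were positive and 20 negative, with a median of -0.04, against 0.01 over all tested genes. Middle-aged controls enter both this comparison and the one with young controls, so that opposite signs for Grin2a, Cacng8 and Grm4 in them are not independent.

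Some extreme values of the set fell in the same pair of libraries. The matching share over all tested genes was not computed, so these counts only describe the set. Middle-aged control 1 also held the highest value of 6 genes, and the lowest of 0. Of the 6 genes with their highest value in Que 2 (Gria4, Grik1, Grik3, Grid1, Grm4 and Grm8), all 6 had their lowest value in middle-aged control 2. Of the 9 genes lowest in Que 2, 4 were highest in middle-aged control 2, namely Grik4, Grik5, Cacng8 and Cnih2. Que 2 is a library with high choroid plexus markers and high Zic1 and Prkcd, and middle-aged control 2 the one with a high sum of CA3 and CA2 markers. The part of these markers in the differences was not tested.

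Without both libraries, an alternative chosen after seeing the data, 4 genes were lower at an unadjusted p under 0.05, namely Grin2a, Grm5, Cacng8 and Cnih3 (background 4.16%), and Cacng7 was higher (background 6.02%). Gria1 no longer had an unadjusted p under 0.05, but its log2 difference of -0.11 was as large as before. Those of Grik4, Grik5, Cnih2 and Grm4 were smaller, at -0.09, -0.05, -0.02 and 0.16. Without middle-aged control 2 alone 4 genes were lower (Gria1, Grin2a, Grin2b and Cacng8; background 4.5%) and 0 higher (background 7.74%). Without middle-aged control 1, Grin2a differed by -0.09 and no longer had an unadjusted p under 0.05. Cacng8 was among the lower genes in each of these 3 fits, and 0 genes passed the adjustment.

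The sum of 7 dentate granule neuron markers also differed, at 102 to 106 FPKM in Que, 111 to 119 FPKM in middle-aged controls and 102 to 105 FPKM in young controls, and that of 6 CA1 markers was 294 to 304 FPKM in Que, 308 to 322 FPKM in middle-aged controls and 307 to 318 FPKM in young controls. In the dentate sum the largest gaps were those of C1ql2 and Stxbp6. C1ql2 averaged 32.5 FPKM in Que, 38.5 in middle-aged controls and 33.1 in young controls, and Stxbp6 27.7, 30.8 and 26.3 FPKM. Dsp and Tdo2 averaged less in middle-aged than in young controls, and Lct was nearly equal. Of the dentate and CA1 markers 2 of 7 and 1 of 6 were lower in Que than in middle-aged controls without overlap (background 7.35%). Likewise 2 and 1 were lower at an unadjusted p under 0.05 by limma (background 4.69%), and none was called. The part of these markers in the differences was not tested, and in bulk tissue fewer cells of a type and less RNA per cell cannot be told apart. The summed level of all 33 genes was 1372, 1330 and 1348 FPKM in Que, 1425, 1414 and 1412 FPKM in middle-aged controls and 1385, 1350 and 1389 FPKM in young controls. It was highest in the middle-aged controls, without overlap, as deposited and under both scalings. The sum is weighted towards genes with high levels. Gria1 averaged 217 FPKM in Que, 234 FPKM in middle-aged controls and 222 FPKM in young controls, and Cnih2 208, 230 and 225 FPKM. Between middle-aged and young controls 15 of the 32 tested genes had a negative difference. The summed level was examined after the values were seen and was not tested.

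**Figure D3:**
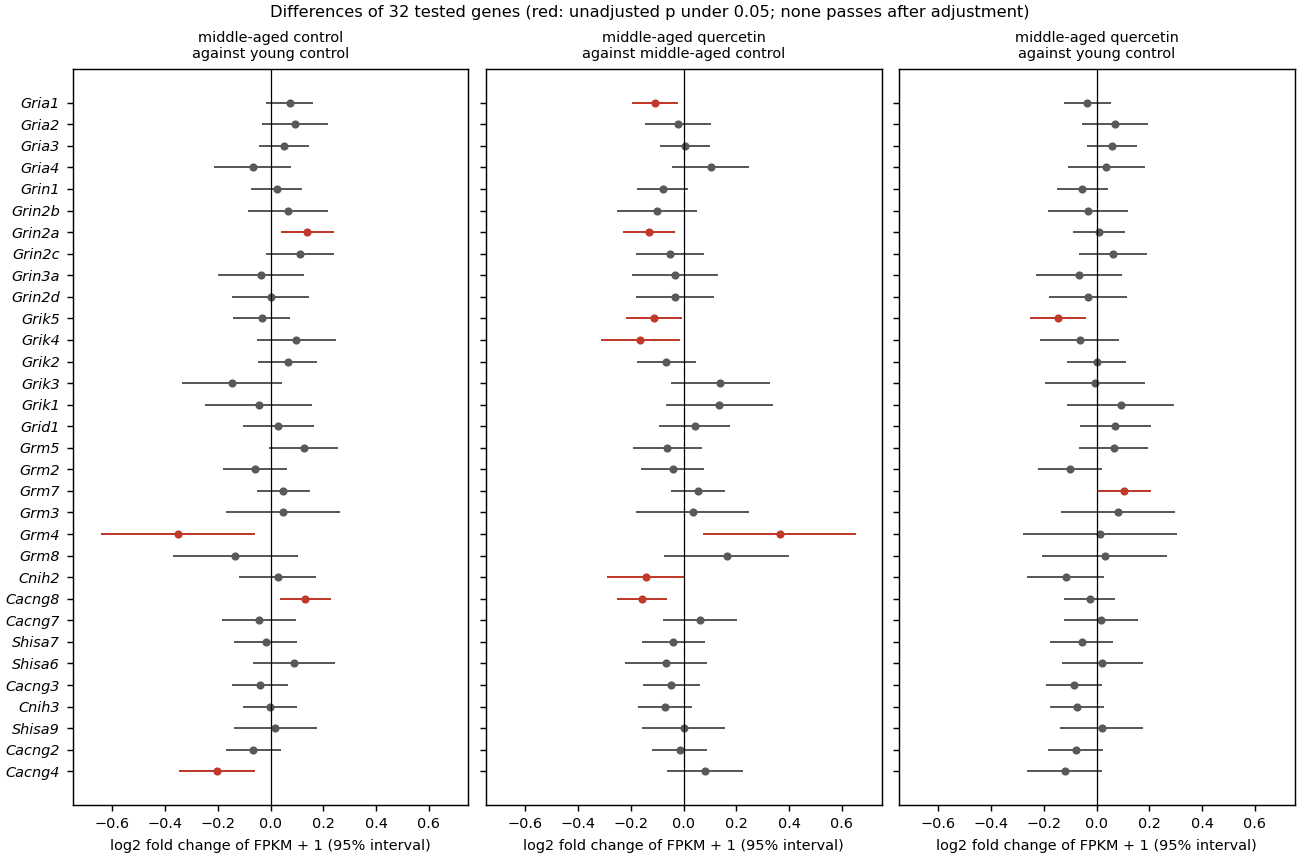
Log2 difference of FPKM + 1 with its 95% interval for the 32 tested genes in the 3 comparisons (left, middle-aged control against young control; middle, quercetin against middle-aged control; right, quercetin against young control). Genes with an unadjusted p under 0.05 are red, 4, 7 and 2 in the 3 panels, and 0 passed after adjustment. The widest intervals are those of Grm4.

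Que was also compared with young controls, to ask how far treated middle-aged animals differed from young ones. Of all tested genes 0.0766% were called, and none of the 32. At an unadjusted p under 0.05, Grm7 was higher (1 of 32, background 3.41%) and Grik5 lower (1 of 32, background 2.89%). Groups did not overlap for Grm7 on the higher side (background 6.45%) and for Grik5 and Cacng2 on the lower side (background 5.82%).

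Grik5 averaged 58.8 ± 1.80 FPKM in Que and 65.1 ± 2.17 FPKM in young controls (log2 difference -0.15, standard error 0.0467, limma adjusted p = 0.644). Grm7 averaged 15.1 ± 0.635 FPKM in Que and 14.0 ± 0.368 FPKM in young controls (log2 difference 0.10, standard error 0.0444, limma adjusted p = 0.778). The differences of Cacng4, Grm2 and Cacng3 were -0.12, -0.10 and -0.09 (limma adjusted p from 0.804 to 0.811). Over the 32 genes 16 differences were positive and 16 negative, and no interval reached beyond 0.30 on the log2 scale. Without Que 2, 2 genes were higher (background 2.4%) and 3 lower (background 2.47%) at an unadjusted p under 0.05. Leaving out young control 2 took Grm2 to -0.06, and leaving out young control 1 took Cacng3 to -0.04.

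Subunit ratios were compared within libraries, where scaling cancels, over 4 ratios and 3 comparisons, 12 in all. The ratio of Cacng8 to Cacng2, the hippocampal TARP over stargazin, was 3.74, 3.76 and 3.70 in Que, 4.30, 4.20 and 3.90 in middle-aged controls and 3.64, 3.42 and 3.71 in young controls. The middle-aged controls were above both other groups without overlap. Each of these comparisons gave p = 0.10 (exact permutation test, two-sided), which is the smallest p that 3 against 3 libraries allow, and 0.48 after adjustment over the 12.

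The ratio of Gria1 to Gria2 was 1.21 in Que, 1.28 in middle-aged controls and 1.30 in young controls. The groups overlapped, and its smallest p was 0.20 (exact permutation test, two-sided; 0.48 after adjustment).

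**Figure D4:**
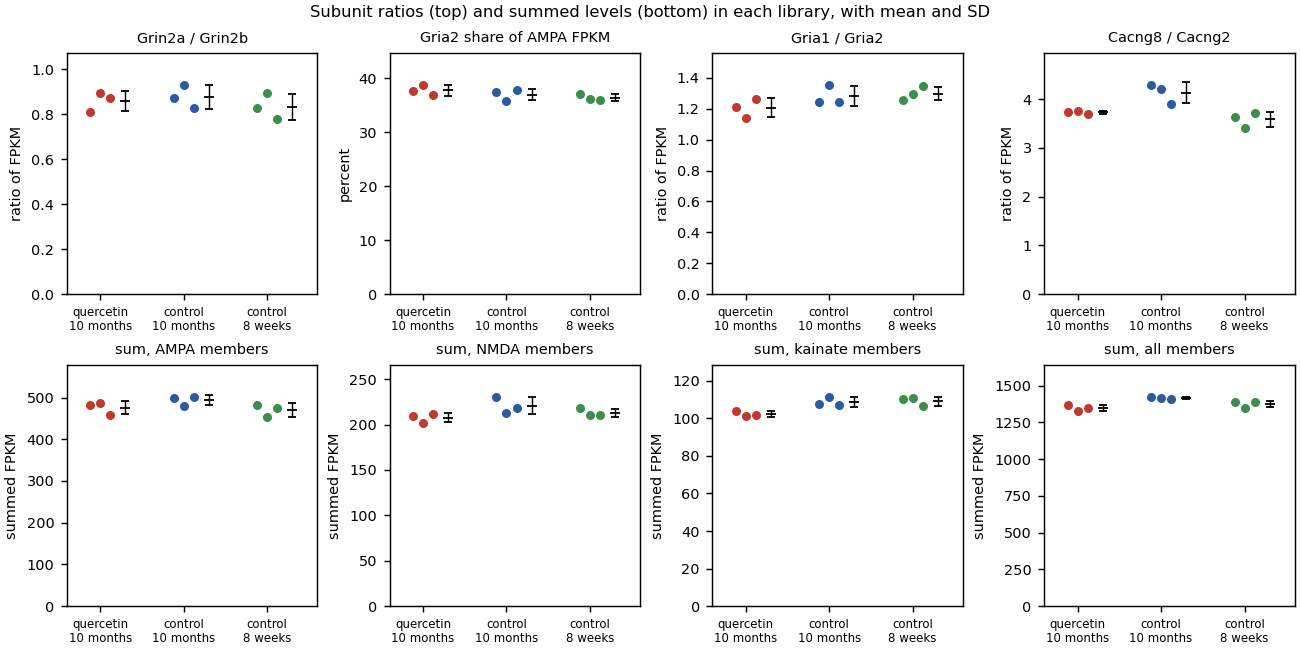
Ratios of FPKM within each library (top row; the share of Gria2 is in percent of AMPA subunit FPKM) and summed FPKM (bottom row), with 1 point per library and the mean and SD of 3 at its right; all axes start at 0. The Cacng8 to Cacng2 ratio is 3.90 to 4.30 in the middle-aged controls, above the other 6 libraries, and the kainate sum is 101 to 104 FPKM in Que, below the other 6.

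The wider pathway was covered by 3 lists. None of 35 postsynaptic scaffold and signalling genes was called in any comparison, and at an unadjusted p under 0.05 there were 2 higher and 3 lower between middle-aged and young controls, 2 higher and 4 lower between Que and middle-aged controls and 0 higher and 1 lower between Que and young controls. Of 18 tested genes of glutamate release, uptake and metabolism, none was called either. At an unadjusted p under 0.05 there were 1 higher and 2 lower between middle-aged and young controls, 3 higher and 2 lower between Que and middle-aged controls and 1 higher and 0 lower between Que and young controls. Of 20 tested genes for other receptor assembly and auxiliary proteins, 2 were higher and 2 lower, 1 and 1, and 0 and 0 in the same comparisons. The shares over all tested genes were 5.59% higher and 6.63% lower between middle-aged and young controls. They were 6.98% and 4.69% between Que and middle-aged controls, and 3.41% and 2.89% between Que and young controls. These 3 lists were chosen with earlier results of these data known, so their counts beside the background are not an independent comparison. Of the 20 genes 1 was called in 1 comparison, middle-aged controls against young controls (background 0.23%).

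That gene was Neto1, which encodes an auxiliary protein of kainate receptors that slows their gating and also binds NMDA receptors. Neto1 had 31.3, 29.2 and 29.6 FPKM in Que, 36.0, 36.4 and 34.2 FPKM in middle-aged controls and 29.5, 30.1 and 28.8 FPKM in young controls. All middle-aged controls were above all other libraries. Neto1 averaged 35.5 ± 1.17 FPKM in middle-aged controls and 29.5 ± 0.665 FPKM in young controls (SD, n = 3 each), and rose by 0.26 on the log2 scale (standard error 0.0415, limma adjusted p = 0.0319).

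Between Que and middle-aged controls Neto1 differed by -0.24 (standard error 0.0415, limma adjusted p = 0.0615) and between Que and young controls by 0.03 (adjusted p = 0.943 by limma). The call in age was lost on leaving out any middle-aged control, any young control or Que 2, with limma adjusted p from 0.0522 to 0.168 over these 7 libraries, while the log2 difference stayed between 0.24 and 0.29. It was also lost with a replicate block (adjusted p = 0.0511 by limma). As with Cacng8 and Grin2a, the dentate granule marker sum was highest in the middle-aged controls, mainly through C1ql2 and Stxbp6. The part of this sum in the Neto1 difference was not tested.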

How the data were processed

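Hippocampal RNA-seq from 9 libraries (3 middle-aged quercetin, 3 middle-aged control, 3 young control) was used. The table the authors deposited lists FPKM, to 2 decimals, of 22173 genes, and 18798 of them carry values. The study's methods name HISAT2, Bowtie2 and RESM, and the processing notes of the submitters list TopHat2, Cufflinks and GRCm38. The tool behind the FPKM is not stated in the sources used here, nor is the treatment of strand or of reads shared by paralogs. FPKM carries no counts, so no count model or counting interval was used and the depth is unknown.

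Values were transformed to log2(FPKM + 1), which understates changes of low genes, and fitted with limma 3.58.1 (R 4.3.3, mean-variance trend) over all 9 libraries for genes that reached 1 FPKM in 3 or more libraries. Benjamini-Hochberg adjustment covered all 13062 tested genes. Ratios were compared by exact permutation of 20 assignments. Fold changes are named for called genes and, where fewer than 5 were called, for the genes with the smallest p up to 5 per comparison; other genes are given by level, and genes of the other lists where called. Adarb1 and single tissue markers were named outside this rule. The members and lists were chosen with earlier results of these data known. Alternatives were another pseudocount, other filters, 2 scalings, leaving out libraries, a replicate block, changed limma settings and fits restricted to 6 libraries. Codon positions and sequences came from GENCODE M21 transcripts (GRCm38). Python 3.11.15 and matplotlib 3.10.9 drew the figures.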

Additional observations from a re-analysis of the deposited data

How the results depend on the processing

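In each of 60 alternative fits (20 per comparison) 0 genes of the set were called, with a smallest limma adjusted p of 0.165. All 298 values of the genes named by smallest p kept their sign, which their selection in the same libraries made likely. Counts over all genes depended more on the setting. Between middle-aged and young controls they lay between 9 (without young control 3 and Que 2 together) and 66 (mean of at least 5 FPKM), against 30 as reported. Between Que and middle-aged controls they lay between 1 (no filter, or without those libraries) and 32, against 22, and between Que and young controls between 4 and 10, against 10. The median log2 difference of the set ranged from -0.0035 to 0.0391 between middle-aged and young controls from -0.0521 to -0.0176 (without middle-aged control 3) between Que and middle-aged controls and from -0.0361 to 1e-04 between Que and young controls when single libraries were left out. The log2 difference of Gria1 to Gria2 between Que and young controls was -0.0421 without young control 3 and Que 2, against -0.106 as reported. The Neto1 difference between Que and young controls was -0.004 without Que 1 and at most 0.0461 on leaving out another library.

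Neto1 was not called between middle-aged and young controls with no filter (adjusted p = 0.0558), in a fit of 6 libraries (0.0617), without trend (0.0877), without young control 3 and Que 2 (0.180) or without Que 2 and middle-aged control 2 (0.0946), all by limma. Between Que and middle-aged controls it was called with a mean of at least 5 FPKM (0.0472) and with upper-quartile scaling (0.0463). The number of genes of the set at an unadjusted p under 0.05 ranged, with single libraries left out, from 3 to 7 (without young control 3) between middle-aged and young controls, against 4, and from 4 (without middle-aged control 2) to 7 between Que and middle-aged controls, against 7. It ranged from 1 to 5 between Que and young controls, against 2. Without young control 3 there were 5 higher and 2 lower between middle-aged and young controls (background 4.16% and 5.99%). Without Que 3 there were 1 higher and 6 lower between Que and middle-aged controls (background 6.34% and 4.49%). Between Que and young controls there were 2 higher and 3 lower without Que 2 (background 2.4% and 2.47%). The causes of these changes were not tested.

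Same-numbered libraries of the groups did not deviate together over all tested genes (correlations from -0.198 to 0.118). The labels give no other link between them. These correlations cannot decide whether such libraries were processed together, since other differences between libraries enter them too. With a replicate block, all-gene counts were 20, 13 and 6 in the 3 comparisons, 0 genes of the set were called, and not every library correlated best with its own number. The median half-width of the 95% intervals of the set, 0.13 on the log2 scale, is not adjusted for the number of genes, so larger differences than this were needed for a call.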
